A study of Mus musculus with 22 samples.

Results

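The genes described here are the 10 that encode connexins of the heart and the proteins of the intercalated disc, picked by name from the deposited expression table: Gja1, Gja5, Gja4 and Gjc1 for gap junctions, Dsp, Pkp2, Jup, Dsc2 and Dsg2 for desmosomes, and Cdh2 for adherens junctions. They are 10 of 34378 gene names in that table, and all 10 were among the 18056 genes with a probe that passed the filter on dim probes. RNA came from cardiac fibroblasts (CF) in culture. The donor animals were CD1 mice, and their aMHC-GFP genotype marks cells that switch on the Myh6 promoter, active in heart muscle, with green fluorescence. One set of cultures carried a retrovirus with Mef2c, Gata4 and Tbx5 on a single polycistronic transcript (MGT), the factors that turn fibroblasts into induced cardiomyocytes. The other set carried a lacZ retrovirus, which brings in the bacterial beta-galactosidase gene. The arrays were made to be set beside single-cell sequencing of such reprogrammed cells. Both sets were sampled at days 3, 5, 7, 10 and 14, and untransduced fibroblasts were sampled at day 0. Each of these 11 groups has 2 arrays, 22 in all, and every group shares the strain and the reporter. The labels do not say whether the 2 samples of a group came from separate cultures, so the p-values rest on the spread between 2 arrays, and that spread could be technical. RNA was taken from bulk samples, in which more cells expressing a gene and more RNA per cell cannot be told apart in any value below.

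The intercalated disc is the contact between the ends of neighbouring heart muscle cells. Gap junctions there are channels built of connexins that pass current and small molecules, desmosomes tie the intermediate filaments of adjacent cells together, and adherens junctions couple their actin filaments through N-cadherin. Connexins differ by cell type in the heart, with Gja1 (Cx43) the main one of working ventricular muscle, Gja5 (Cx40) found in atrial muscle, the conduction system and arterial endothelium, Gja4 (Cx37) best known from endothelium, and Gjc1 (Cx45) from the nodes and the early heart. Fibroblasts also make gap junctions and N-cadherin contacts.

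A level is given as the log2 signal of a gene's probe relative to the 75th percentile of the same array, so that 0 means as bright as that percentile, and levels of different genes are not compared because each probe has its own brightness. A difference is the log2 difference between group means from the limma fit over all genes, and it passed the test where its Benjamini-Hochberg adjusted p was under 0.05. Of the 22 arrays, 21 had a 75th percentile between 1285 and 2124 units of processed signal, and the second day 14 lacZ array had 729. Between 48.4% and 71.0% of spots were well above background, the scanner software's test of a spot against its local surroundings. Slide 1 held days 3 and 5, slide 2 days 7 and 10, slide 3 day 0 and the day 14 lacZ arrays, and slide 4 the day 14 MGT arrays, so that at day 14 slide and vector cannot be told apart. Comparisons of day 3 with day 0, of MGT day 14 with day 0 and of day 14 with day 3 also cross slides. All 7 cardiomyocyte markers were higher in MGT than in lacZ cultures, with a summed signal of 191 to 430 times the 75th percentile on MGT arrays, against 13.1 to 53.4 on lacZ arrays. All 7 fibroblast markers were well above background on every array, and 6 of them were lower in MGT cultures.

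Promoters from the RefSeq table were searched for 5 of the 10 genes. No entry was found for Gjc1 and Pkp2, and Cdh2, Dsc2 and Dsg2, on a chromosome left out here, were not searched. The sequence before the start of the 4 searched genes that were higher in MGT than in lacZ cultures is shown. The reason is that MGT supplies factors with known DNA motifs. Each run is the 250 bases before the annotated start on build GRCm38.p6, 5′ to 3′ on the strand of the gene, with any matches to the searched motifs in capitals. Gja1 is from chr10:56377050-56377299 (plus strand), Gja5 from chr3:97032152-97032401 (plus strand), Dsp from chr13:38151044-38151293 (plus strand) and Jup from chr11:100397791-100398040 (minus strand).
Gja1: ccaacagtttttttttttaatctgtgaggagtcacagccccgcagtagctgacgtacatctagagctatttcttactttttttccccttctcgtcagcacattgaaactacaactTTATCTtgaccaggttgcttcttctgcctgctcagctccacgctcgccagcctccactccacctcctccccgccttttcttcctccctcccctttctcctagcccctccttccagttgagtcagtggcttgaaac
Gja5: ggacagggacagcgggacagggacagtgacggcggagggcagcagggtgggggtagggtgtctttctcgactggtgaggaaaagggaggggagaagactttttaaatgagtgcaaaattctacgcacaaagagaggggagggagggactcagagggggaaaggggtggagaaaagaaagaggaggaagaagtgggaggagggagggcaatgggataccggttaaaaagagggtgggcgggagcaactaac
Dsp: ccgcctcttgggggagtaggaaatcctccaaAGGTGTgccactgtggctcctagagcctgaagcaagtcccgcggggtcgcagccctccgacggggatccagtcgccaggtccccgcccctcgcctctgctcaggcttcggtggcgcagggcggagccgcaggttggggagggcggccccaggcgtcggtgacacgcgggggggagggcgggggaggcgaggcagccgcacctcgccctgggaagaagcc
Jup: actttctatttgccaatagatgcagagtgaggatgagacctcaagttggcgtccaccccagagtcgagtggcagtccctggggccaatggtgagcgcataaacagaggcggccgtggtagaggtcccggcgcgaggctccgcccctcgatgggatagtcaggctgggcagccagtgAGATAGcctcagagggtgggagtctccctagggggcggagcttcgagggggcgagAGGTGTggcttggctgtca
The motifs searched on both strands were the GATA motif (AGATAA or AGATAG, with A or T as the first letter), the T-box motif AGGTGT and the MEF2 consensus. The Gja1 window held 1 GATA match from base -135 to base -130, on the strand opposite the gene, where it reads as TTATCT. Dsp held 1 T-box match from base -219 to base -214, and Jup held 1 GATA match from base -74 to base -69 and 1 T-box match from base -19 to base -14. The windows of Gja5 and of Gja4, which was lower in MGT than in lacZ cultures and is not printed, held none. Of 27025 promoter windows of this length in the table, 27.1% held a GATA match, 12.0% a T-box match and 3.01% a MEF2 match. GATA and T-box matches are thus common, and most windows of any gene lack a MEF2 match. A match is a run of letters and not a measured binding site, and the missing MEF2 matches say only that these letters are not in these windows.

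MGT cultures had more signal than lacZ cultures for most of the set. Averaged over days 3 to 14, 8 of the 10 genes were higher (Dsp, Gja5, Gja1, Dsc2, Pkp2, Jup, Cdh2 and Gjc1), 1 was lower (Gja4) and 1 did not pass the test (Dsg2). Of all 18055 genes tested in that comparison, 23.3% were called higher and 40.7% lower, so a call in itself was common. The median difference of the 10 genes was 1.24, against -0.09 for all genes. Differences ran between 5.24 for Dsp and -1.24 for Gja4. Scaling each array to the 75th percentile of only those probes detected everywhere brought the median of all genes to 0.00 and the share of all calls that were higher to 49.7%, against 36.4% in the main scaling, and 9 of the set were then called higher and 1 lower, with Dsg2, which was near background, added.

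Gja1, whose protein Cx43 forms most gap junctions of ventricular muscle, was higher in MGT cultures on every day, and the gap widened. Its probe, present 10 times per array, lies at chr10:56109814-56109873 on build mm9, 2693 bases into the transcript. In MGT cultures its level was 0.17 and -0.07 at day 3, then 0.30 and 0.50 on day 5, then 1.22 and 1.08 on day 7, then 1.12 and 1.06 on day 10, and then 1.29 and 1.23 on day 14. In lacZ cultures it was -0.96 and -1.03 at day 3, then -0.93 and -0.91 on day 5, then -1.41 and -1.33 on day 7, then -1.28 and -1.36 on day 10, and then -1.64 and -1.91 on day 14. The untransduced fibroblasts lay between the 2 vectors, at -0.62 and -0.58. No MGT array overlapped a lacZ array on any day. The averaged difference was 2.07 ± 0.04 (SE; limma adjusted p = 1.8e-13), a 4.19-fold higher signal. The difference was 1.05 at day 3, then 1.32 on day 5, then 2.51 on day 7, then 2.41 on day 10 and 3.04 on day 14. Its change of 1.99 ± 0.14 between day 3 and day 14 passed the test (limma adjusted p = 8.6e-07). Both sides contributed to it, since day 14 minus day 3 was 1.21 in MGT cultures and -0.78 in lacZ cultures, each past the test.

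**Figure D1:**
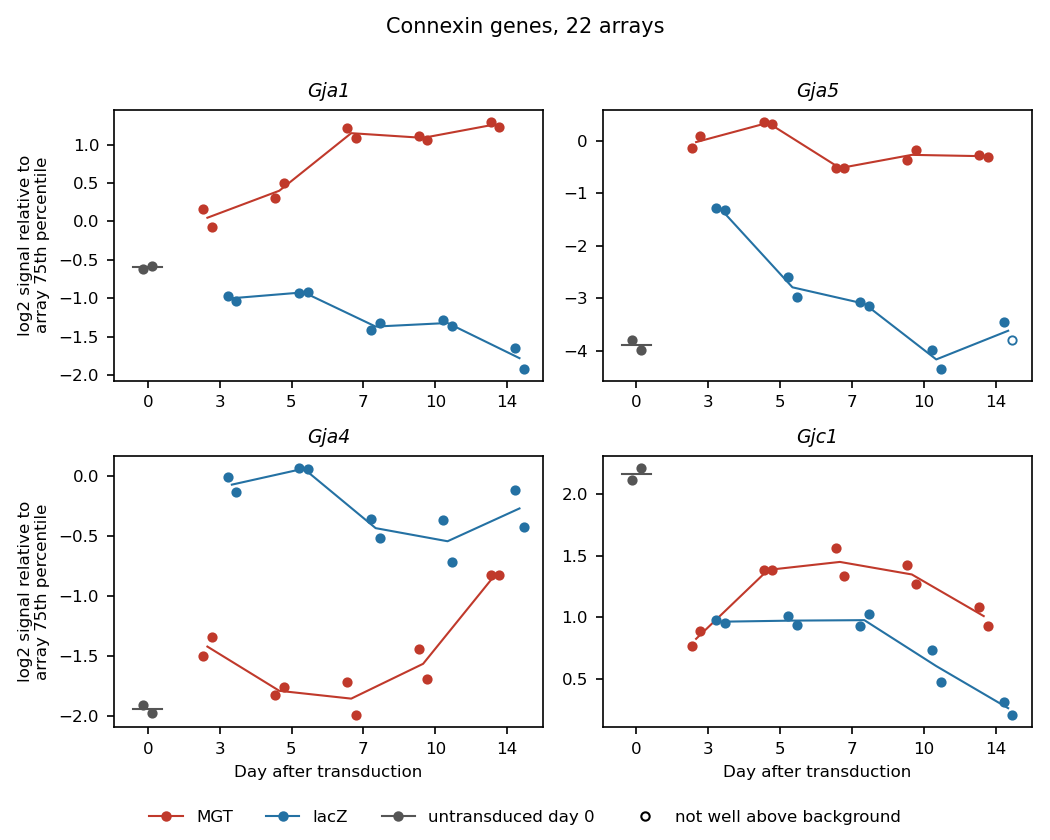
Level of the 4 connexin genes (log2 signal relative to the array's 75th percentile) against day, 1 point per array, with lines through the means of the 2 arrays per group; open points were not well above background. Gja1 and Gja5 are separated by vector on every day, Gja4 is lower in MGT cultures on every day, and Gjc1 is highest in the untransduced cells.

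Gja5, the connexin of atrial and conducting muscle that arterial endothelium also uses, started high in both sets at day 3 and stayed high in MGT cultures only. MGT arrays read -0.14 and 0.09 at day 3, then 0.36 and 0.33 on day 5, then -0.51 and -0.53 on day 7, then -0.36 and -0.17 on day 10, and then -0.27 and -0.31 on day 14. The lacZ arrays read -1.28 and -1.31 at day 3, then -2.60 and -2.98 on day 5, then -3.06 and -3.14 on day 7, then -3.99 and -4.33 on day 10, and then -3.44 and -3.78 on day 14, the last of these not well above background. The day 0 arrays read -3.79 and -3.98. So both vectors stood far above day 0 at day 3, by 3.86 in MGT cultures (limma adjusted p = 1.4e-10) and by 2.59 in lacZ cultures (limma adjusted p = 9.9e-09). By day 14 MGT cultures were still 3.59 above day 0 (limma adjusted p = 1.2e-10), and the difference of 0.27 between lacZ cultures and day 0 did not pass the test (limma adjusted p = 0.12). Without the second day 14 lacZ array that last difference was 0.44 and passed (limma adjusted p = 0.032). Day 14 minus day 3 was -0.27 in MGT cultures, which did not pass (limma adjusted p = 0.14), and -2.32 in lacZ cultures, which did (limma adjusted p = 6.0e-08). The averaged difference was 2.84 ± 0.07 (SE; limma adjusted p = 3.4e-13), and the widening by 2.05 ± 0.21 between day 3 and day 14 passed the test (limma adjusted p = 1.7e-05).

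A second Gja5 probe, designed at the very start of the transcript (chr3:96836339-96836395 on mm9), was well above background on 3 arrays only, both of day 7 MGT and 1 of day 10 MGT. Its averaged difference was 0.00 and its day 14 difference -1.26, both on arrays where it was mostly unmeasured. The Gja5 results therefore rest on the probe 2900 bases into the transcript (chr3:96857349-96857408 on mm9). With the mean of both probes the widening between day 3 and day 14 was 0.25 and with the values of the authors' deposited table it was 0.40, and neither passed the test.

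Gja4, the endothelial connexin Cx37, was the only gene of the set that was lower in MGT cultures. It read between -1.99 and -0.82 on the 10 MGT arrays, against -0.72 to 0.07 on the 10 lacZ arrays, with no overlap. The untransduced cells, at -1.91 and -1.98, were as low as the lowest MGT arrays. The gene was higher than at day 0 at day 3 in both sets, by 0.52 in MGT cultures and by 1.87 in lacZ cultures (limma adjusted p = 0.0045 and 9.9e-08). The difference between the vectors was -1.35 at day 3, then -1.86 on day 5, then -1.42 on day 7, then -1.02 on day 10 and -0.56 on day 14. It narrowed by 0.80 ± 0.19 between day 3 and day 14 (limma adjusted p = 0.0080), and within MGT cultures day 14 was 0.60 above day 3 (limma adjusted p = 0.0023). The day 14 difference of -0.56 had an adjusted p of 0.0045 in the fit over all arrays and of 0.091 when only the day 14 arrays were fitted.

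Endothelial markers moved with Gja4 between the vectors. Of 9 such markers 7 were lower in MGT cultures over the 5 days, and the other 2, Kdr and Vwf, did not pass. Their summed signal was 20.5 to 20.8 times the 75th percentile at day 3 in MGT cultures, against 34.4 to 34.5 in lacZ cultures. At day 14 it was 6.98 to 8.53 in MGT cultures, against 10.9 to 17.3 in lacZ cultures. In untransduced cells, where Gja4 was at its lowest, the sum was 30.5 to 32.4. The part of endothelial cells in the Gja4 and Gja5 values was not tested.

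Gjc1, whose protein Cx45 is the connexin of nodal cells and of the early heart, was highest before transduction. Day 0 read 2.11 and 2.21, above every transduced array. At day 3 both sets were lower than day 0, with differences of -1.33 in MGT cultures and -1.19 in lacZ cultures. MGT arrays then read 1.38 and 1.39 at day 5, then 1.56 and 1.34 on day 7, then 1.43 and 1.27 on day 10, and then 1.09 and 0.93 on day 14. The lacZ arrays read 1.01 and 0.94 at day 5, then 0.93 and 1.03 on day 7, then 0.74 and 0.47 on day 10, and then 0.32 and 0.21 on day 14. The vectors did not differ past the test at day 3 (-0.14 ± 0.10, limma adjusted p = 0.36), and MGT cultures were higher on the 4 later days, by 0.41 to 0.75. The averaged difference of 0.45 ± 0.05 (limma adjusted p = 1.4e-06) is small, its arrays overlap between the vectors, and within slide 1 alone it was 0.14 (limma adjusted p = 0.14). The difference grew by 0.88 ± 0.14 between day 3 and day 14 (limma adjusted p = 0.00063), with day 14 minus day 3 at 0.18 in MGT cultures, not past the test, and at -0.70 in lacZ cultures, past it. With the values of the authors' deposited table that growth was 0.57 and did not pass (limma adjusted p = 0.068).

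Dsp, which encodes desmoplakin, the linker between the desmosomal plaque and intermediate filaments, had the largest difference of the 10 genes. In MGT cultures it read 2.69 and 2.63 at day 3, then 3.75 and 3.75 on day 5, then 4.82 and 4.75 on day 7, then 4.96 and 4.89 on day 10, and then 4.93 and 4.78 on day 14. In lacZ cultures it read -1.53 and -1.45 at day 3, then -0.92 and -0.76 on day 5, then -1.23 and -1.22 on day 7, then -0.81 and -1.11 on day 10, and then -0.47 and -0.92 on day 14. Day 0 read -2.42 and -2.71. The lowest MGT array thus stood above the highest lacZ array by a wide margin already at day 3. The averaged difference was 5.24 ± 0.06 (SE; limma adjusted p = 5.0e-16), a 37.7-fold higher signal. It was 4.15 at day 3, then 4.58 on day 5, then 6.01 on day 7, then 5.88 on day 10 and 5.55 on day 14. The difference at day 14 exceeded that at day 3 by 1.40 ± 0.19 (limma adjusted p = 0.00021). Against day 0, MGT cultures were higher by 5.22 at day 3 and by 7.42 at day 14. The lacZ cultures were higher by 1.07 at day 3 and by 1.87 at day 14, and all 4 values passed the test.

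Dsp has a second probe, 5665 bases into the transcript, whose letters are shown because the 2 probes differ in the lacZ cultures. It is a 60-base run that maps to chr13:38285480-38286579 on mm9, plus strand, a span of 1100 bases that takes in an intron.
Dsp second probe: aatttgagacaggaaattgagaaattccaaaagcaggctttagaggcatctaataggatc
This probe was well above background on 12 arrays, all 10 of MGT and both of day 3 lacZ. It read -2.62 and -2.60 in MGT cultures at day 3, against -4.85 and -5.01 in lacZ cultures, a difference of 2.32 (limma adjusted p = 0.00022 over all kept probes). On the later days the lacZ arrays were not well above background, and MGT cultures were at least 9.37-fold higher at day 5, at least 31.1-fold at day 7, at least 26.8-fold at day 10 and at least 8.54-fold at day 14. Both probes therefore put MGT above lacZ on every day. They part in lacZ cultures over time, where the first probe was 0.79 higher at day 14 than at day 3 (limma adjusted p = 0.00029) and the second was measured at day 3 and not well above background at day 14. Against day 0 the second probe was at least 7.90-fold higher at day 3 in MGT cultures and at least 1.58-fold higher in lacZ cultures. No direction of Dsp within lacZ cultures after day 3 is read from this.

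**Figure D2:**
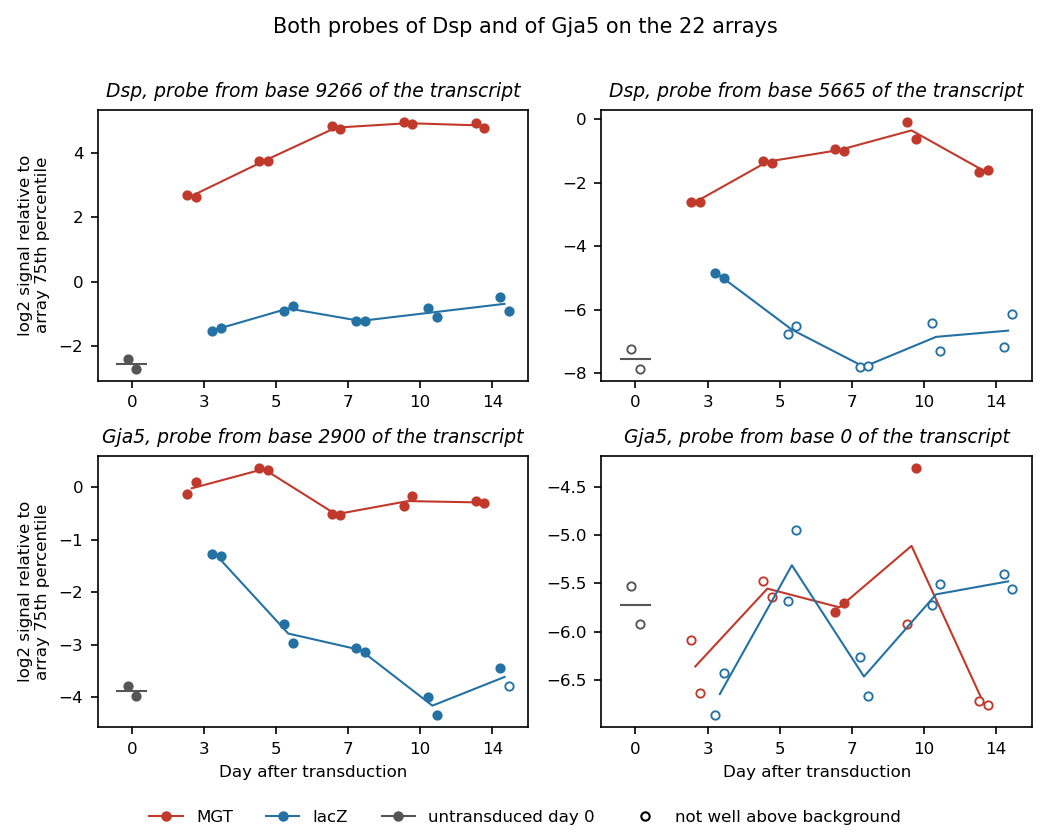
Level of both probes of Dsp (top) and of Gja5 (bottom) against day, 1 point per array, in log2 signal relative to the array's 75th percentile; open points were not well above background and lines join group means. Both Dsp probes separate MGT from lacZ on every day, and the Gja5 probe at the start of the transcript was well above background on 3 arrays.

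Pkp2, the plakophilin of the cardiac desmosome, stood close between the vectors at day 3 and apart later. MGT arrays read 1.35 and 1.33 at day 3, then 2.07 and 1.90 on day 5, then 2.47 and 2.48 on day 7, then 2.63 and 2.70 on day 10, and then 2.95 and 2.84 on day 14. The lacZ arrays stayed between 0.54 and 1.14 over all 5 days, and day 0 read 0.21 and -0.07. No MGT array overlapped a lacZ array, although the 0.38 ± 0.15 at day 3 did not pass the test (limma adjusted p = 0.084). It passed when arrays were scaled on probes detected everywhere (0.45, limma adjusted p = 0.039) and when only the day 3 arrays were fitted (limma adjusted p = 0.012). The difference was 1.35 at day 5, then 1.78 on day 7, then 1.66 on day 10 and 2.10 on day 14, each past it. Its growth of 1.72 ± 0.22 between day 3 and day 14 (limma adjusted p = 9.9e-05) lay in MGT cultures, where day 14 minus day 3 was 1.55 (limma adjusted p = 3.0e-06), against -0.17 in lacZ cultures, which did not pass (limma adjusted p = 0.38). Without the first day 14 lacZ array the value in lacZ cultures was -0.43 and passed (limma adjusted p = 0.020).

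Jup, plakoglobin, which binds cadherins in both desmosomes and adherens junctions, was higher than at day 0 in both sets of cultures and somewhat higher with MGT. Its probe (chr11:100238038-100238097 on mm9) was not well above background on either day 0 array. Relative to day 0 it was at least 5.91-fold higher at day 3 in MGT cultures and at least 3.38-fold higher in lacZ cultures. At day 14 it was at least 9.78-fold higher in MGT cultures and at least 3.60-fold higher in lacZ cultures, where 1 of 2 arrays was well above background. MGT arrays read -3.08 to -2.19 and lacZ arrays -4.22 to -2.78, so the sets overlap at their edges. The averaged difference was 1.03 ± 0.13 (limma adjusted p = 1.2e-05), with daily values between 0.80 and 1.44. The values of days 5, 7, 10 and 14 passed the test and day 3 did not (limma adjusted p = 0.053). Day 3 passed under 5 of the other settings, among them normexp (limma adjusted p = 0.0055) and a fit of the day 3 arrays alone (limma adjusted p = 0.0031). The calls at days 7 and 14 were lost in fits of those days' arrays alone (limma adjusted p = 0.13 and 0.085). The 2 day 7 lacZ arrays differed, at -2.78 and -3.61, and without the second of them the day 7 difference was 0.43 and did not pass. That call was also lost without either day 7 MGT array, the day 5 call without the second array of either vector, and the day 10 call without any 1 of its 4 arrays. The change between day 3 and day 14 was 0.64 and did not pass (limma adjusted p = 0.28), and without the first day 14 lacZ array it was 1.11 and passed (limma adjusted p = 0.030).

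Dsc2, desmocollin 2, a desmosomal cadherin, was like Gja5 higher at day 3 than at day 0 in both sets and lower again later in lacZ cultures. MGT arrays read -2.50 and -2.46 at day 3, then -3.12 and -3.21 on day 5, then -3.35 and -3.34 on day 7, then -3.21 and -3.19 on day 10, and then -2.90 and -3.17 on day 14. The lacZ arrays read -3.42 and -3.61 at day 3, then -3.54 and -3.48 on day 5, then -5.24 and -5.08 on day 7, then -5.13 and -4.87 on day 10, and then -5.79 and -6.42 on day 14. Neither day 0 array, neither day 14 lacZ array and 1 of the day 10 lacZ arrays was well above background. At day 3 the gene was at least 8.08-fold above day 0 in MGT cultures and at least 3.96-fold above it in lacZ cultures. The vectors differed by 1.03 at day 3, by 0.35 at day 5, which did not pass (limma adjusted p = 0.13), by 1.81 at day 7 and by 1.80 at day 10. At day 14 MGT cultures were at least 3.21-fold higher than lacZ cultures. In lacZ cultures day 14 was at least 2.30-fold lower than day 3. In MGT cultures day 14 minus day 3 was -0.55 ± 0.17 (limma adjusted p = 0.014), a call lost without the second array of either day. The fitted widening of the difference between day 3 and day 14 was called, but its size uses day 14 lacZ values that were not well above background, and with normexp background correction it was 0.14 and did not pass (limma adjusted p = 0.64).

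Dsg2, desmoglein 2, the partner of desmocollin 2 across the desmosomal gap, was close to background throughout. The probe used, 487 bases into the transcript, was well above background on 3 of 22 arrays, both of day 7 MGT and 1 of day 14 MGT, and a second probe on 2 of 22. It passed the filter only through the day 7 MGT group, where it read -5.60 and -6.16, against -7.85 and -8.46 in day 7 lacZ cultures, so a difference there was built into its passing. The bound from these values is at least 1.04-fold higher in MGT cultures. The averaged difference of 0.46 ± 0.20 did not pass the test (limma adjusted p = 0.063), it passed without the second array of day 3 lacZ, day 14 lacZ or day 14 MGT (0.53 to 0.59), and the gene is left out of the descriptions below except in counts.

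Cdh2, N-cadherin, the adherens junction cadherin of both fibroblasts and heart muscle, was bright on every array and differed little between the vectors. MGT arrays read 4.89 to 5.83 and lacZ arrays 4.45 to 5.42 over the 5 days, with day 0 at 4.71 and 4.80. On each single day both MGT arrays lay above both lacZ arrays. The averaged difference was 0.47 ± 0.04 (SE; limma adjusted p = 7.7e-07), and the second probe of the gene gave 0.44. The daily values of 0.38 to 0.64 all passed the test, and the calls at days 3 and 5 were each lost without either of 2 of their 4 arrays (values of 0.33 to 0.38). Without the second day 10 lacZ array the day 10 value was 0.30, against 0.46, and still passed. The calls at days 10 and 14 were lost when only the arrays of that day were fitted (limma adjusted p = 0.12 and 0.080). The day 3 call was lost with the values of the authors' deposited table (limma adjusted p = 0.068). The day 5 call was lost with the second probe (0.22, limma adjusted p = 0.096). The difference did not change past the test between day 3 and day 14 (0.03 ± 0.14, limma adjusted p = 0.89). Both sets fell over that time, by 0.62 in MGT cultures and by 0.65 in lacZ cultures, each past the test.

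**Figure D3:**
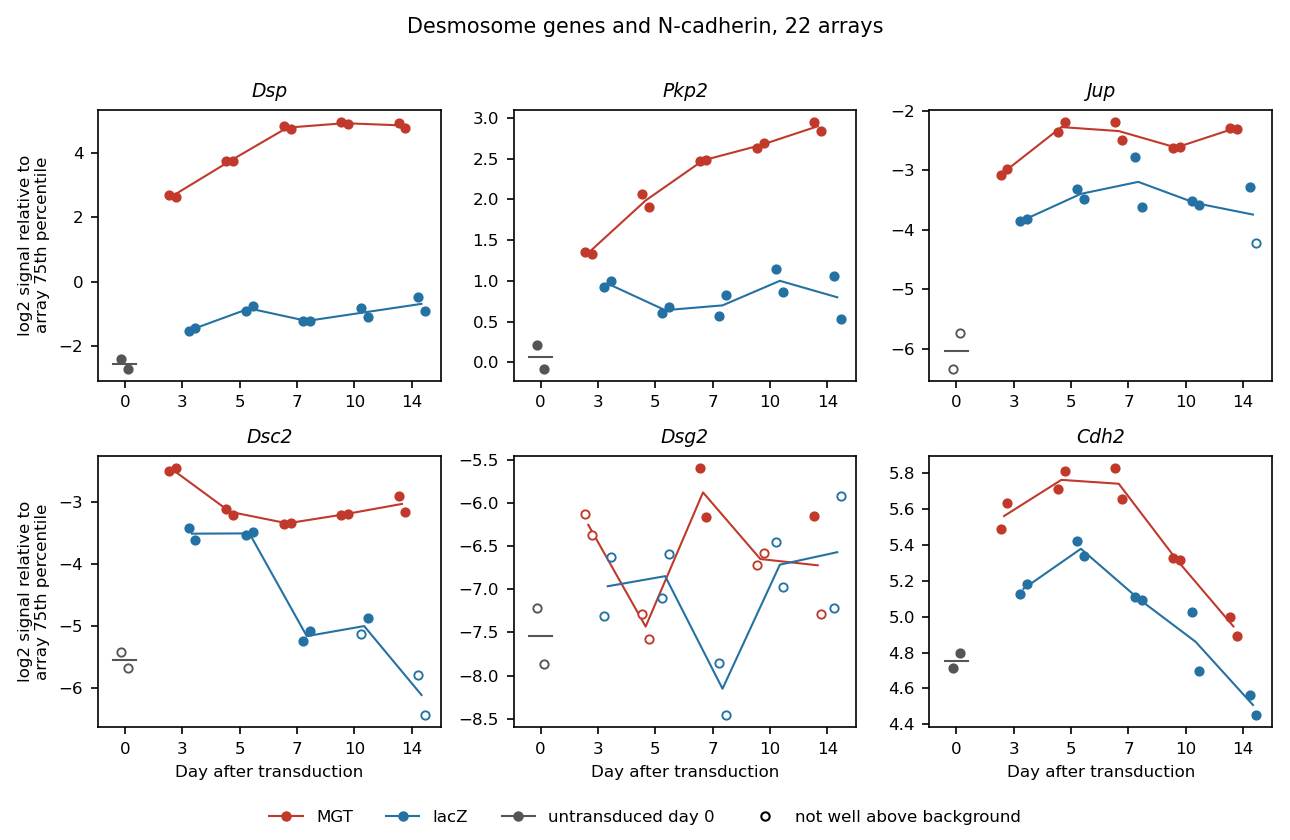
Level of the 5 desmosome genes and of Cdh2 (log2 signal relative to the array's 75th percentile) against day, 1 point per array, with lines through group means; open points were not well above background. Dsp and Pkp2 climb in MGT cultures, Dsc2 is lower in lacZ cultures after day 5, and Dsg2 is near background on most arrays.

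Day by day, the number of the 10 genes higher in MGT cultures was 5 at day 3, then 7 on day 5, then 9 on day 7, then 8 on day 10 and 8 on day 14, and Gja4 was the only gene called lower on each day. The day 3 count was 7 with the scaling on probes detected everywhere and with only the day 3 arrays fitted, since Pkp2 and Jup then passed. These settings called 2806 and 2988 of all 18055 genes higher at day 3, against 2230 in the main fit. In the main fit 12.4% of all genes were called higher and 18.1% lower at day 3, and 16.2% higher and 21.9% lower at day 5. At day 7 the shares were 14.9% higher and 22.4% lower, at day 10 they were 15.2% and 24.2%, and at day 14 they were 18.3% and 29.3%. Dsg2 is 1 of the 9 at day 7, likewise through its passing the filter there. Within slide 1 the 2-day mean was higher for 7 of the 10 genes and lower for 1, and within slide 2 higher for 9 and lower for 1, where 45.8% and 50.2% of all genes were called in either direction. Without day 14 the 4-day mean was higher for 9 genes and lower for 1, where 59% of all genes were called in either direction. Both counts of 9 include Dsg2, whose call was built into its passing the filter, so that 8 others were higher. The 4-day values were 5.16 for Dsp, 2.72 for Gja5, 1.82 for Gja1, 1.29 for Pkp2, 1.25 for Dsc2 and -1.41 for Gja4.

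**Figure D4:**
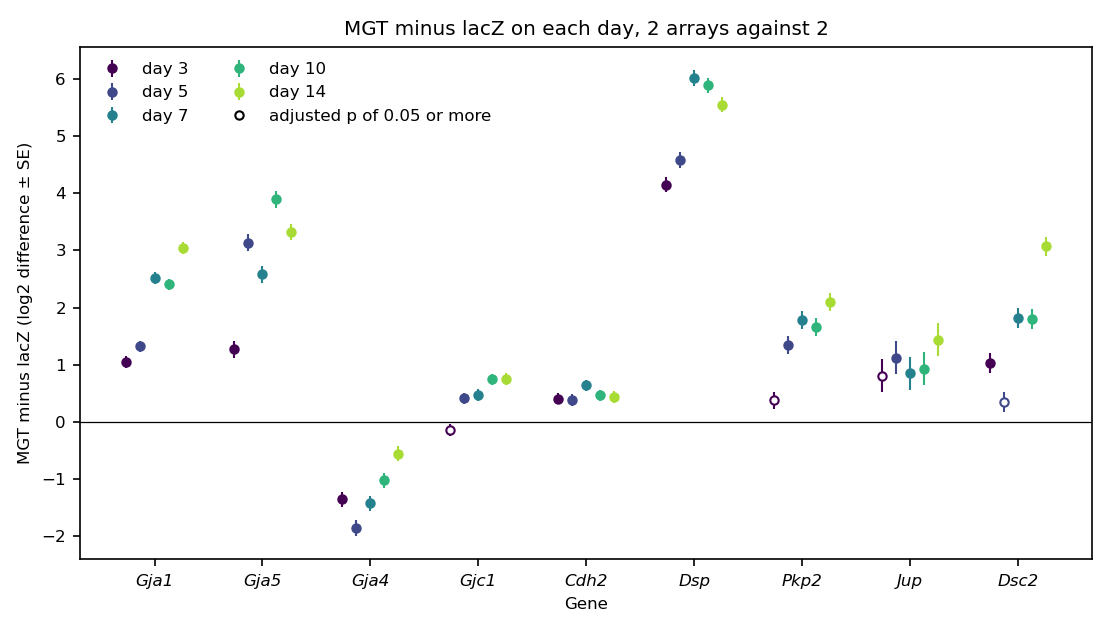
MGT minus lacZ difference (log2) on each day for the 9 measured genes, points with standard error bars from the limma fit, 2 arrays against 2; open points did not pass the test. Dsp lies between 4.15 and 6.01, and Gja4 below 0 on every day. Gja1, Pkp2, Jup and, by little, Gjc1 have their largest difference at day 14, when slide and vector cannot be told apart. The Dsc2 point at day 14 uses lacZ arrays that were not well above background and is not a measured size.

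The difference between the vectors changed between day 3 and day 14 for 7 of the 10 genes, all 7 toward MGT. Dsc2, Gja5 and Gjc1 are counted with the limits given above. Of all genes, 12.3% changed toward MGT and 15.2% toward lacZ. For Gja4 the change toward MGT means that a negative difference became smaller. The 2 arms had different parts in the change. In MGT cultures day 14 was above day 3 for 5 genes (Dsp by 2.19, Pkp2 by 1.55, Gja1 by 1.21, Jup by 0.73 and Gja4 by 0.60) and below it for 2 (Cdh2 and Dsc2), against 26.8% of all genes above and 27.5% below. The Jup value had an adjusted p of 0.049, and leaving out any 1 of its arrays lost the call. In lacZ cultures day 14 was below day 3 for 5 genes (Dsc2, Gja5, Gja1, Gjc1 and Cdh2), where 27.5% of all genes were lower and 29.3% higher, and above it for Dsp alone, with the reservation given for its second probe. In the same comparison all 7 cardiomyocyte markers were lower (median -1.89), with a summed signal of 13.1 to 14.9 at day 14, against 50.9 to 53.4 at day 3. All 5 macrophage markers were higher (median 2.69), with a sum of 104 to 143 at day 14, against 17.8 at day 3 on both arrays. In MGT cultures 4 of the 5 macrophage markers were higher, with 87.1 to 94.5 at day 14, against 25.6 to 25.8 at day 3. The part of these cells in the changes over time was not tested.

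Cultures of both vectors differed from day 0 for many of these genes. No untransduced culture was sampled after day 0, so transduction and time in culture cannot be told apart in these comparisons. At day 3, 9 of the 10 genes were higher than at day 0 in MGT cultures and 1, Gjc1, was lower, where 29.3% of all genes were higher and 33.1% lower. The 9 include Dsg2, which was not well above background in either group. In lacZ cultures at day 3, 7 genes were higher (Gja5, Jup, Dsc2, Gja4, Dsp, Pkp2 and Cdh2) and 2 were lower (Gja1 and Gjc1), where 28.8% of all genes were higher and 29% lower. Gja1 moved in opposite directions, with day 3 minus day 0 at 0.64 in MGT cultures and -0.40 in lacZ cultures. At day 14, 7 genes were higher than day 0 in MGT cultures and Gjc1 was lower, where 33.1% of all genes were higher and 37.4% lower. In lacZ cultures at day 14, 4 were higher (Jup, Dsp, Gja4 and Pkp2) and 4 lower (Gjc1, Gja1, Dsc2 and Cdh2), where 35.5% of all genes were higher and 33.4% lower. These counts lie near those shares. Dsc2 was not well above background in day 14 lacZ cultures or at day 0, so no fold is given for it. The Cdh2 call in day 14 lacZ cultures was lost with its second probe (-0.23, limma adjusted p = 0.052). With only the arrays compared, the Cdh2 and Pkp2 calls there were both lost (limma adjusted p = 0.16 and 0.083). All 4 of these comparisons share the 2 day 0 arrays, and the pairs of one vector share its day 3 or day 14 arrays with the comparisons above.

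Markers of cardiomyocytes bear on the lacZ values. At day 3 in lacZ cultures 1 of the 7 was higher than at day 0, 2 were lower and 4 did not pass. Their summed signal was 50.9 to 53.4, against 13.0 to 14.1 at day 0. Among epithelial markers, which bear on the desmosome genes, Epcam did not pass the filter on dim probes and Cdh1 was well above background on 2 of 10 MGT and 2 of 10 lacZ arrays. The summed signal of the 4 measured ones was 0.135 to 0.310 on MGT arrays, against 0.139 to 0.417 on lacZ arrays. Of 8 epicardial and mesothelial markers 4 were higher and 4 lower in MGT cultures. Their summed signal was higher in MGT cultures on every day, at 54.3 to 56.9 on day 10, against 31.3 to 45.1 in lacZ cultures, and at 43.2 to 47.0 on day 14, against 31.2 to 33.2 in lacZ cultures. The part of these cell types in the desmosome values was not tested.

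Other genes of the same junctions, from lists of related genes, did not all move with the set. Among the other proteins found at the disc of heart muscle, 11 of 14 tested genes were higher in MGT cultures and 1 was lower, with a median difference of 2.27. Of all genes, 23.3% were higher and 40.7% lower in the same average over days 3 to 14. Popdc3, of the Popeye family of membrane proteins, was higher by 5.59, Des, the intermediate filament protein desmin to which desmoplakin binds, by 4.81. The actin-binding Xin proteins Xirp1 and Xirp2 were also called higher. Xirp2 passed the filter only through MGT groups, so its call, counted in the 11, was built in. In lacZ cultures Popdc3 was well above background on 4 of 10 arrays, Xirp1 on 2 and Xirp2 on 1, so the size of their differences was measured in part for Popdc3 and is not given for the other two. Ank2, ankyrin B, was lower in MGT cultures by 0.86 on the log2 scale.

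Other connexins and pannexins were mixed, with 2 of 13 tested genes higher and 5 lower and a median of -0.20, where 23.3% of all genes were higher and 40.7% lower. The connexin counts lie near those shares. Gja3, best known from the lens, was higher by 3.19 and was well above background on 10 of 10 MGT and 6 of 10 lacZ arrays. Gjd4 was also called higher and was well above background on 4 of 10 MGT arrays and no lacZ array, so it passed the filter only through MGT groups and its call was built in. Gjb1, the connexin best known from liver and from myelinating cells of nerve, differed by -0.39. Of the 19 genes in that list 6 did not pass the filter on dim probes.

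Among other desmosome genes 2 of 6 tested were higher and 4 lower, with a median of -0.37, against 23.3% and 40.7% of all genes. With 6 genes these counts are not far from those shares. Pkp4 (1.06) and Perp (0.86) were the higher ones. Pkp1 (-2.10) and Ppl (-1.75), which serve desmosomes and the cornified layer of skin, were lower, as were Pkp3 (-0.64) and Evpl (-0.09). The Evpl value equals the median of all genes. The remaining 7 of that list, all desmogleins and desmocollins, did not pass the filter.

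Of 15 other cadherins 3 were higher and 8 lower, with a median of -0.17, and 5 were lower when arrays were scaled on probes detected everywhere. The counts lie near the 23.3% higher and 40.7% lower of all genes. Cdh13, a cadherin anchored in the membrane by a lipid, differed by 4.30, Cdh4, R-cadherin, by 3.66 (4 of 10 lacZ arrays well above background) and Cdh6 by 0.83. Cdh5, the cadherin of endothelium, differed by -2.05, Cdh10 by -1.23, Cdh22 by -0.67 and Cdh11, the cadherin of mesenchymal cells, by -0.53. Cdh22 was well above background on only 2 of 10 arrays of each vector.

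The catenins and adaptors that bind cadherins and nectins split, with 8 of 20 higher and 10 lower and a median of -0.07, against the same 23.3% and 40.7% of all genes. Ctnna3, the alpha-catenin of heart muscle that binds plakophilin 2, was called higher and was well above background on 10 of 10 MGT arrays, against 1 of 10 lacZ arrays. It passed the filter only through MGT groups, so its call was built in and no size is given. Lmo7 (2.56) and Afdn (1.74) were also higher. Nectin2 (-1.16), Cxadr (-1.01), Ctnna2 (-0.83) and Nectin1 (-0.77) were lower. Ctnnb1, beta-catenin, the counterpart of plakoglobin in adherens junctions, was lower by 0.14 ± 0.03 (limma adjusted p = 0.00038). That is a small distance from the median of all genes in the same comparison, -0.09.

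**Figure D5:**
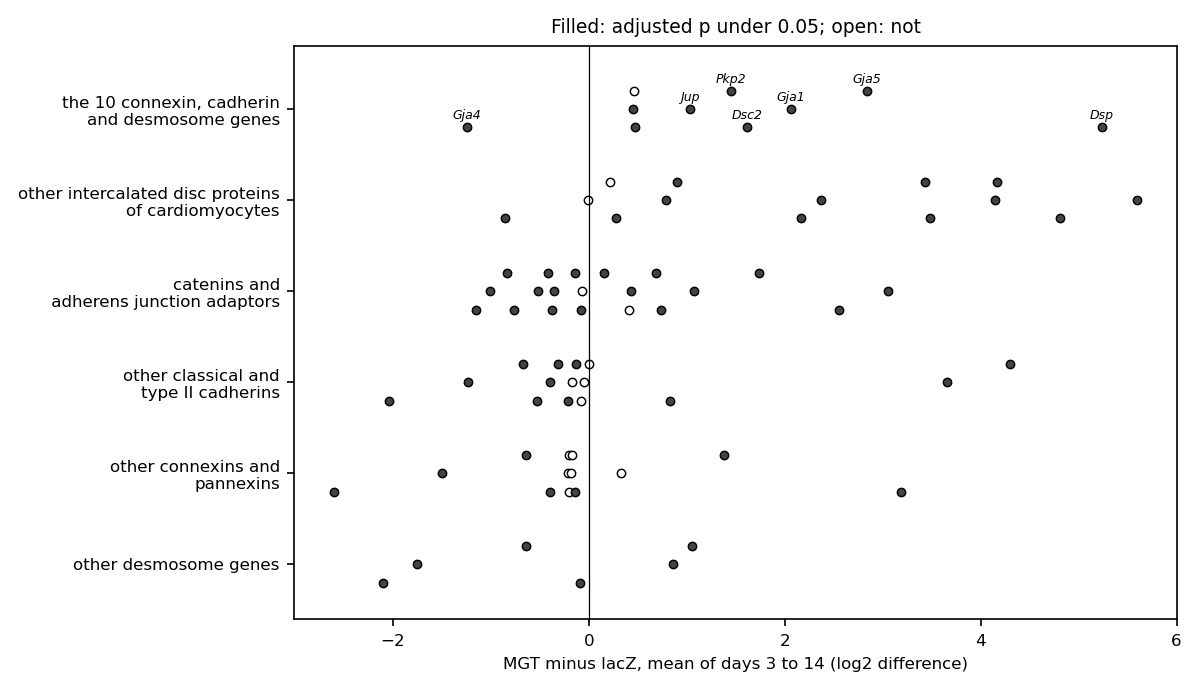
MGT minus lacZ difference averaged over days 3 to 14 (log2, x axis) for the 10 genes and 5 lists of related genes, 1 point per gene; filled points passed the test, and those of the 10 genes past 1 in either direction are named. The other disc proteins of cardiomyocytes lie mostly on the right, and the other 4 lists lie on both sides of 0.

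Over the 11 group means the 9 measured genes did not form a single pattern. Dsp and Pkp2 were the closest pair (Pearson r = 0.96), Gja1 followed Dsp at 0.91 and Gja5 followed Dsc2 at 0.89. Gja4 had negative r with Gja1 (-0.66) and Gjc1 (-0.72), and Gjc1 was near 0 with Pkp2 (0.06). These values describe 11 points that share arrays, vectors and slides, and carry no p. The Jup point at day 0 and the Dsc2 points at day 0 and of day 14 lacZ were not well above background. Every r with Jup or Dsc2, here and below, rests in part on those unmeasured levels. Among 12398 or 12399 genes measured on all 22 arrays, those most like each gene over the same 11 means were as follows. For Dsp they were Pacsin3, Casq2, the calsequestrin of cardiac sarcoplasmic reticulum, and Colq (r = 0.995, 0.994 and 0.992). For Gja1 they were Net1, Cav3, the caveolin of muscle, and Rhpn2 (0.991, 0.989 and 0.982). For Pkp2 they were Nrtn, Rpe and Hrc, a calcium-binding protein of the sarcoplasmic reticulum (0.985, 0.979 and 0.978). For Gja5 they were Ttll7, Rasgef1c and Rasgef1a (0.970, 0.967 and 0.956), and for Dsc2 Enpp3, Ttll7 again and Bag2 (0.954, 0.950 and 0.942). For Gja4 they were Vps29, Ddit3 and Cfap45 (0.939, 0.932 and 0.932). For Gjc1 they were Arfgef1, Zfp11 and Zbtb5 (0.969, 0.955 and 0.951), for Cdh2 Cd1d1, Caskin2 and Rps23rg1 (0.988, 0.981 and 0.973), and for Jup Rom1, Cyb5r4 and Pla2r1 (0.980, 0.979 and 0.978).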

How the data were processed

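Total RNA was read on Agilent 1-colour (Cy3) mouse arrays, 1 per sample. Per the file headers, Agilent Feature Extraction 10.7.3.1 gave the deposited spot intensity after background subtraction, with no normalization between arrays. The deposited table of 1 intensity per gene name, for which the submitters' processing notes name limma, was an alternative, with a normalization method not given in the sources used here. The spot intensity was put on a log2 scale, and each array's 75th percentile was subtracted. Control and outlier spots were left out, spots of a probe were averaged, and a probe had to be detected well over background by both arrays in some group (kept: 38800 of 55681 probes). A gene's value was its kept probe with the highest mean. One model with 11 group means was fitted with limma 3.58.1 in R 4.3.3 (lmFit, eBayes), with Benjamini-Hochberg adjustment over all genes within each of 13 comparisons, and tested on simulated data. Bounds of the form "at least" set the brighter group's mean against, per dim array, the higher of the probe's value and the dimmest signal of any probe well above background. The genes, lists and tests were chosen with earlier results of these data known. Named genes were all 10 of the set, up to 4 genes called in each direction per related list, and the 3 genes most like each called gene, clone and predicted gene names left out, and some genes that this rule names are not reported here. Ctnnb1 and the markers were named after their values were seen. Same-numbered MGT and lacZ arrays of a day did not deviate together (r between -0.03 and 0.09), so numbers were not used as pairs. Precision is limited by 2 arrays per group. Alternatives were other background corrections, scalings, filters, probe rules, fits and leaving out each array. The averages without day 14 and with a gene's second probe were chosen after seeing the data.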

Additional observations from a re-analysis of the deposited data

Results flagged for a closer look

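For 7 of the 10 genes the difference between MGT and lacZ cultures was not the same at day 14 as at day 3, by the test of that change itself in the limma fit. In log2 units the change was 2.05 for Gja5, 1.99 for Gja1, 1.72 for Pkp2, 1.40 for Dsp, 0.88 for Gjc1 and 0.80 for Gja4. The Gja5 change was 0.40 with the authors' deposited table and 0.25 with the mean of both probes, and neither passed. The Gjc1 change was 0.57 with the deposited table and did not pass (limma adjusted p = 0.068). The fitted 2.04 for Dsc2 is not a measured size, since neither day 14 lacZ array was well above background, and with normexp background correction it was 0.14 and did not pass (limma adjusted p = 0.64). Slides differ between days 3 and 14, and the day 14 MGT and lacZ arrays lie on different slides.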

How the results depend on the processing

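Of the per-gene results under the other settings, 1831 kept their direction and side of the threshold, 52 lost a call, 28 gained one and 22 turned direction. Where no cause is named, the cause was not tested. Keeping only probes above background on all arrays leaves 6 of the 10 genes. The count higher was then 5 on average, 3 at day 3, 5 at days 7, 10 and 14, 5 for MGT at day 3 over day 0, 4 for lacZ at day 3 and 4 for MGT at day 14. For day 14 minus day 3, 1 was lower in MGT and 3 in lacZ cultures. Of all 13442 genes left by that filter, 3102 were higher on average and 1827 at day 3. At days 7, 10 and 14 the numbers higher were 2016, 2037 and 2396. Over day 0 they were 4288 for MGT at day 3, 4249 for lacZ at day 3 and 4543 for MGT at day 14. For day 14 minus day 3 it called 8257 in MGT and 8673 in lacZ cultures, of which 3814 and 4587 were higher. In the related lists that filter left 5 catenins, 1 cadherin, 0 connexins and 6 disc proteins higher, and 2 desmosome genes lower. With no filter 8 connexins and 8 desmosome genes were lower. Fitting only the arrays compared gave 0 lower at day 14, 2 lower in lacZ day 14 minus day 0, and 0 higher in lacZ day 14 minus day 3. Calls among all genes also became fewer in these fits, at 2699, 8386 and 5437, against 8589, 12443 and 10251 in the main fit. The count higher in lacZ day 14 minus day 3 was 0 with the mean of a gene's probes and 2 with normexp. Among all genes these settings called 5126 and 5401 higher, against 5289 in the main fit. Normexp gave 7 higher for lacZ day 14 minus day 0, where it called 7601 of all genes higher, against 6415. Quantile normalization left 1 lower in MGT day 14 minus day 3. The deposited table called 4 catenins lower. The other cadherins had 5 lower with the scaling on probes detected everywhere, 5 within slide 1 and 5 within slide 2. Within slide 1 other connexins had 1 higher and 3 lower.

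The second Gja5 probe, mostly below background, gave -0.24 at day 5, -1.26 at day 14, a change of -1.54, -0.64 for MGT day 3 minus day 0, -0.92 for lacZ day 3 minus day 0, -1.02 for MGT day 14 minus day 0 and 1.16 for lacZ day 14 minus day 3. Dsp in lacZ cultures, day 14 minus day 3, was -0.47 with the mean of probes and -1.74 with its second probe. Dsg2 at day 14 was 0.56 with quantile normalization, 0.32 in the deposited table and 0.089 with no filter, and its change was 0.063 in the deposited table and 0.17 with no filter. The Gjc1 change was 0.57 in the deposited table, without a call. Normexp brought the share of day 14 calls that were higher to 26.8%, against 38.4%.

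Leaving out 1 array gave 2 to 4 lower genes in lacZ day 14 minus day 0 and 1 to 2 in MGT day 14 minus day 3. Ranges that cross 0 were -0.043 to 0.11 for the Cdh2 change, -0.43 to 0.095 for Pkp2 and -0.38 to 0.56 for Jup in lacZ day 14 minus day 3, -0.80 to 0.50 for Dsg2 at day 14, and -1.04 to 0.10 for Dsg2 in MGT day 14 minus day 3. Such fits leave a group with 1 array, assumed to vary like the others. With the replicate number as a block the average still had 8 higher and 1 lower, and Jup in MGT day 14 minus day 3 (0.73) lost its call. Slide as a random block could not be fitted, since each group lies on 1 slide. Levels near background limit Dsg2, Dsc2 and Jup.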
